A study of Mus musculus with 16 samples.

Results

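The transcripts of 10 genes of iron uptake, storage, export and use were followed in the terminal ileum of mice by RNA-seq. The genes are *Slc11a2*, *Cybrd1*, *Slc40a1*, *Heph*, *Tfrc*, *Fth1*, *Ftl1*, *Hmox1*, *Glrx5* and *Iscu*. They were chosen by name, as every deposited transcript called after one of them, and *Glrx5* was selected because its level was lower on the Western diet (WD) in wild-type mice. They are 10 of 23299 genes in the table, with 32 of its 59258 transcripts, and all 10 passed the filter on low values that left 19042 genes for testing.

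Absorptive cells of the intestine take up ferrous iron at the brush border and hand it to the blood at the opposite membrane. CYBRD1 reduces dietary iron and SLC11A2 (DMT1) carries it into the cell. Ferritin, a shell of FTH1 heavy chains and FTL1 light chains, stores what is not passed on. SLC40A1 (ferroportin) exports iron and HEPH (hephaestin) oxidizes it so that plasma transferrin can bind it. TFRC is the receptor that brings transferrin-bound iron into cells, and HMOX1 frees iron from heme. In mitochondria, ISCU is the scaffold on which iron-sulfur clusters are built and GLRX5 passes the clusters on. When iron is scarce, the iron regulatory proteins bind a stem-loop, the iron-responsive element (IRE), in several of these mRNAs, blocking translation when it lies ahead of the coding sequence and protecting the mRNA when it lies behind it.

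The study compared C57BL/6 wild-type mice (*Tas1r3*+/+) with mice carrying a knockout of the taste receptor subunit gene *Tas1r3* (*Tas1r3*-/-), backcrossed to C57BL/6 for at least 7 generations. Mice of 5 to 6 weeks at the start received for 10 weeks either a normal diet (ND) with plain water or a WD, which joined a 60% high-fat diet to a 30% sucrose solution. The labels give 4 mice per group, 2 of them male, and name neither litters nor cages, so p-values measure the spread between these samples. In ND-fed *Tas1r3*-/- mice, both female columns were weighted means of the male columns in all transcripts of the 10 genes and were left out, and the 2 female columns of *Tas1r3*-/- mice on the WD, which are related too, entered as their average. This left 4 ND-fed and 4 WD-fed *Tas1r3*+/+ libraries. In *Tas1r3*-/- mice it left 2 ND-fed libraries, both male, and 3 WD-fed libraries, which were 2 males and the female average. Genotype in ND-fed mice, diet in *Tas1r3*-/- mice and the interaction of the 2 are therefore partly mixed with sex.

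The implied depth was 7003815 to 12384396 reads per library (median 9220336). Summed deposited RPKM (reads per kilobase of transcript, scaled to library size) was 817011 to 819916 in the 6 ND-fed and 542371 to 685274 in the 7 WD-fed libraries, so libraries were rescaled, and all levels below are scaled RPKM. Without this step, the median log2 difference of all genes between the diets was -0.38 in *Tas1r3*+/+ and -0.35 in *Tas1r3*-/- mice, compared with 0.02 and 0.00 with it. *Tas1r3* itself was at 1.56 to 2.09 in ND-fed and 4.33 to 6.65 in WD-fed *Tas1r3*+/+ libraries, and at most 0.00532, or 0.172 reads, in *Tas1r3*-/- libraries. Enterocyte markers (10 of 10 listed) were present in every library, with sums between 1562 and 18847. The 6 markers of ileal enterocytes summed to 941 to 10487, with *Fgf15* at 0 in at least 1 ND-fed *Tas1r3*+/+ library, and the 4 listed markers of the proximal small intestine summed to 1.22 to 29.7, the fifth, *Pdx1*, being at 0 or not listed. In bulk tissue, fewer cells of a type and less RNA per cell cannot be told apart.

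The level of the 10 genes ran from that of the ferritin heavy chain, among the highest of the tissue, to that of the reductase. Over the 13 libraries the median scaled RPKM was 1062 for *Fth1*, 403 for *Ftl1*, 24.6 for *Glrx5*, 23.7 for *Heph*, 19.0 for *Iscu*, 17.6 for *Tfrc*, 14.3 for *Slc11a2*, 12.1 for *Slc40a1*, 2.35 for *Hmox1* and 0.858 for *Cybrd1*. *Fth1* (820 to 1778) stood above *Ftl1* (179 to 547) in every library, and *Ftl1* stood above the other genes. The ranges of *Glrx5*, *Heph*, *Iscu*, *Tfrc*, *Slc11a2* and *Slc40a1* overlapped from each gene to the next in this order, as did those of *Hmox1* and *Cybrd1*. *Fth1* lay at the 99.6th percentile of all genes tested and *Cybrd1* at the 9.65th.

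**Figure D1:**
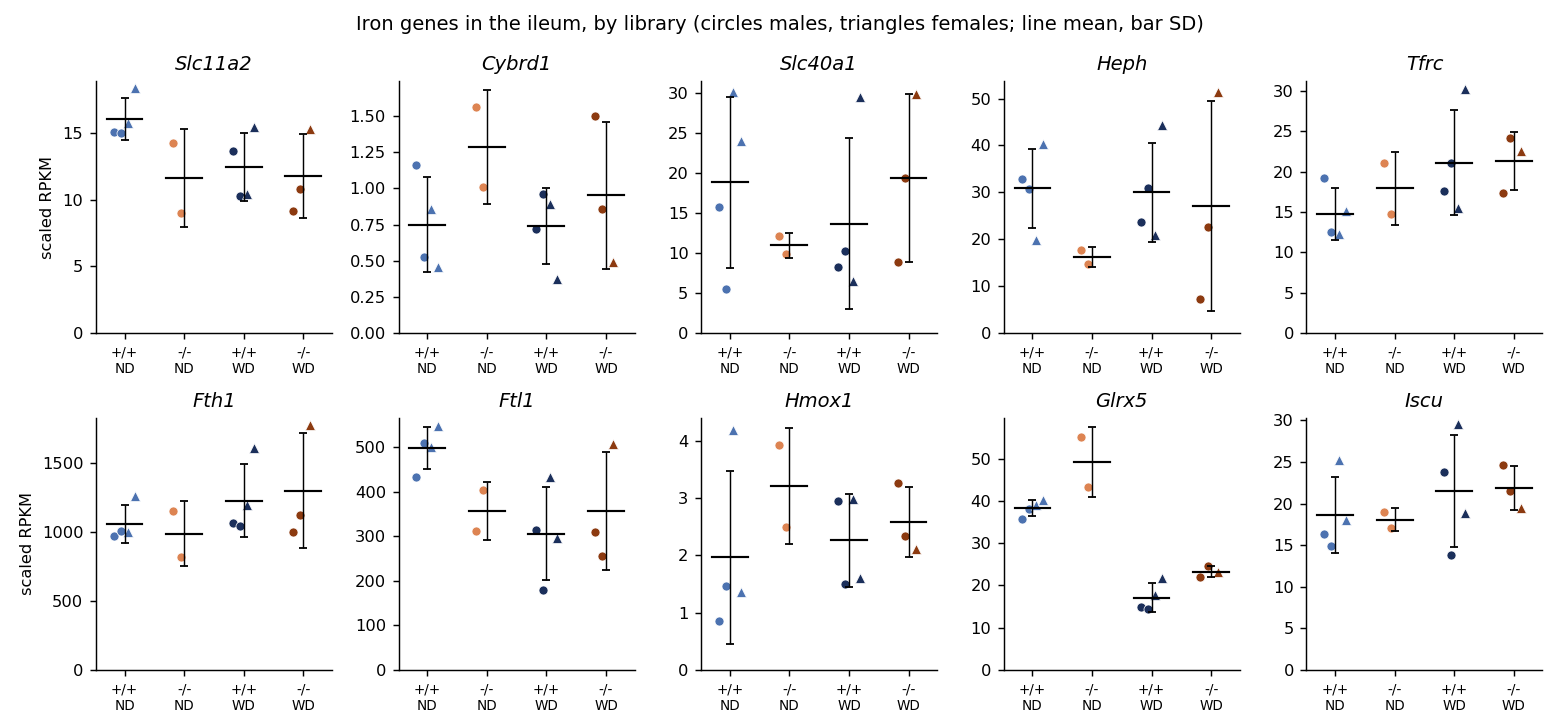
Scaled RPKM of the 10 iron genes (y axis, one panel per gene) in each of the 13 libraries, grouped by *Tas1r3* genotype and diet. Circles are males, triangles females, lines means and bars SD. *Glrx5* lies between 35.7 and 55.1 in the ND-fed and between 14.4 and 24.6 in the WD-fed libraries, and for *Heph*, *Slc40a1* and *Hmox1* the spread within a group is wide.

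A gene was called at an adjusted p under 0.01 in limma (Benjamini-Hochberg over all genes tested) and a fold change of at least 2. No member was called in any comparison in which it was tested. *Glrx5* was tested for diet in *Tas1r3*-/- mice only, because samples that selected it enter the other comparisons. Few genes were called at all, with 1 gene or 0.00525% for WD versus ND in *Tas1r3*+/+ mice, 0 genes or 0% in *Tas1r3*-/- mice, 0 genes or 0% between the genotypes on the ND, and 2 genes or 0.0105% on the WD. At an unadjusted limma p under 0.05, and with *Glrx5* left out, *Ftl1* was the 1 member that passed for diet in *Tas1r3*+/+ mice, where 15.5% of all genes did. In *Tas1r3*-/- mice 1 of the 10 passed (*Glrx5*), beside 5.49%. The median log2 fold change of the 10 was -0.03 for diet in *Tas1r3*+/+ mice and 0.14 in *Tas1r3*-/- mice, compared with 0.02 and 0.00 for all genes. The interaction of diet and genotype was called for 0 genes in all by limma. With *Glrx5* left out, no member reached an unadjusted limma p under 0.05 for it.

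**Figure D2:**
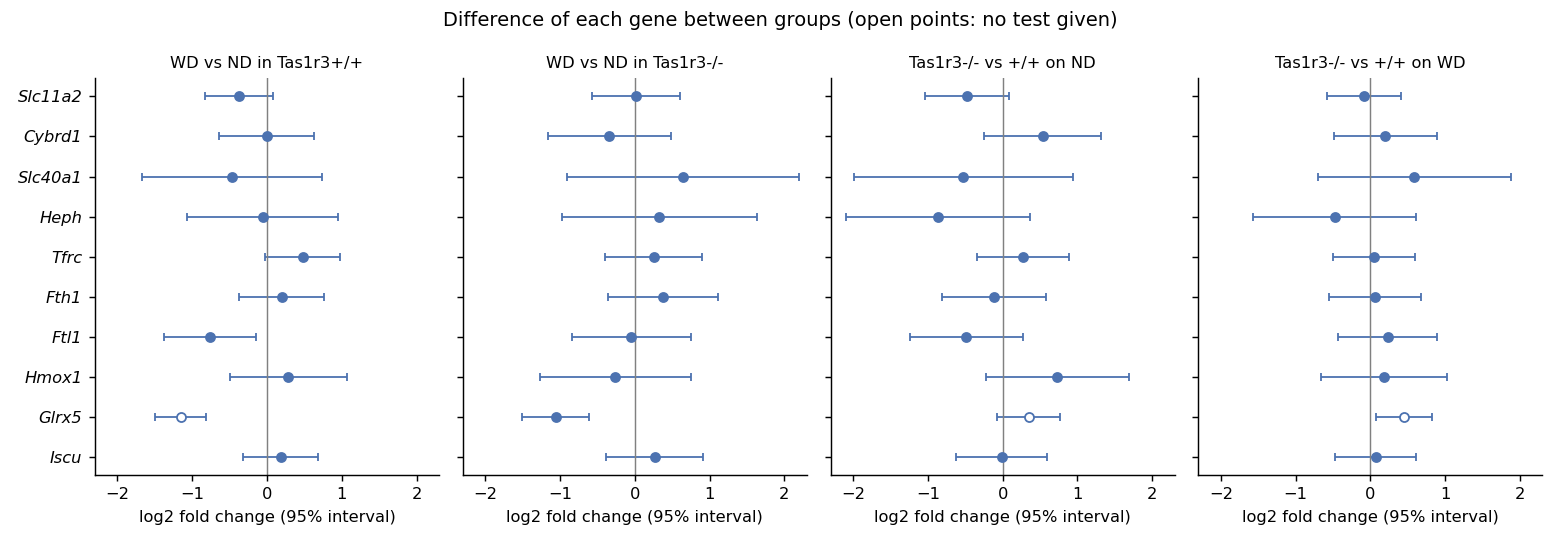
Log2 fold change (x axis) of each of the 10 genes with its 95% interval from limma, in the diet comparison of each genotype and the genotype comparison on each diet. Open points mark *Glrx5* where its selection used the samples and no test is given. Their intervals are drawn as a description only, and whether they reach 0 is not a test. The *Glrx5* interval for diet in *Tas1r3*-/- mice (-1.50 to -0.62) and the *Ftl1* interval for diet in *Tas1r3*+/+ mice (-1.38 to -0.15) lie below 0, and the intervals of *Slc40a1* and *Heph* are the widest.

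The IRE-like sequences are shown first, because transcripts of the same gene differ in whether they hold one. Each was found in a GENCODE M21 transcript (GRCm38) as a C, 5 bases, the loop CAGTGN and 5 bases that pair with the first run (A-T, G-C or G-T), with at most 1 unpaired base in the second run, on the transcript's own strand. The sequences run 5′ to 3′, with the 6-base loop in capitals.
Fth1-201, 5′ UTR, chr19:9982732-9982760, plus strand: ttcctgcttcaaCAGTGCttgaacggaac
Ftl1-201, 5′ UTR, chr7:45459779-45459807, minus strand: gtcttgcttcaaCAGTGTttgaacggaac
Slc40a1-201, 5′ UTR, chr1:45925465-45925493, minus strand: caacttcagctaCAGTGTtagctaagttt
Slc11a2-205, 3′ UTR, chr15:100395153-100395181, minus strand: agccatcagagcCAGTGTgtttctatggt
Tfrc-201, 3′ UTR, chr16:32631219-32631247, plus strand: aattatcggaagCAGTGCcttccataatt
Both ferritin elements are alike around the loop, and *Tfrc* had 3 further matches in the same 3′ UTR, all 4 of them also in the retained-intron transcript Tfrc-204. The Slc11a2-205 match had the 1 unpaired base, and Slc11a2-201, which ends in another 3′ UTR, had no match, nor had the listed transcripts of *Cybrd1*, *Heph*, *Hmox1*, *Glrx5* and *Iscu*. A match of this kind was in 0.321% of 50507 annotated 5′ UTRs and 1.35% of 47832 3′ UTRs, and it is a description of the letters only.

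*Cybrd1* (ENSMUSG00000027015.4, chr2:71117923-71142926), the ferric reductase of the brush border, was the lowest of the 10. On the ND and WD, *Tas1r3*+/+ mice had a scaled RPKM of 0.750 ± 0.327 and 0.738 ± 0.263 (SD, n = 4 each), compared with 1.29 ± 0.391 (SD, n = 2) and 0.952 ± 0.511 (SD, n = 3) when *Tas1r3* was absent. These levels rest on 19 to 97 reads per library, and the groups overlapped in every comparison.

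*Slc11a2* (ENSMUSG00000023030.16, chr15:100387898-100425072), the importer, was at 15.1, 15.0, 15.8 and 18.4 in ND-fed *Tas1r3*+/+ mice (males 1 and 2, then females 1 and 2). It was at 14.3 and 9.02 in ND-fed *Tas1r3*-/- males. In WD-fed mice it was at 13.7, 10.3, 10.4 and 15.5 in *Tas1r3*+/+ and at 9.18, 10.9 and 15.3 in *Tas1r3*-/- libraries (males 1 and 2, then the female mean). Every other group thus reached below the ND-fed *Tas1r3*+/+ values, and both ND-fed *Tas1r3*-/- males lay under all of them. The log2 fold change for WD in *Tas1r3*+/+ mice was -0.37 (SE 0.21, limma adjusted p = 0.413; exact two-sided permutation test, p = 0.0857). Between the genotypes on the ND it was -0.48 (SE 0.26, limma adjusted p = 0.895; exact two-sided permutation test, p = 0.0667, the smallest that 15 splits allow). Neither passed, and for WD in *Tas1r3*-/- mice the value was 0.02.

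The main annotated forms of *Slc11a2* differ at the 3′ end and so in the IRE shown above. Slc11a2-205, with the element, was at 6.33 ± 1.11 and 4.85 ± 1.34 (SD, n = 4 each) on the ND and WD in *Tas1r3*+/+ mice, and Slc11a2-201, without it, at 5.46 ± 0.912 and 5.37 ± 1.29. With *Tas1r3* knocked out, Slc11a2-205 was at 5.00 ± 2.41 (SD, n = 2) and 3.83 ± 2.09 (SD, n = 3) on the ND and WD, and Slc11a2-201 at 4.52 ± 0.684 and 5.80 ± 0.578. The ratio of 201 to 205 within a library was 0.670 to 1.30 in ND-fed and 0.870 to 1.63 in WD-fed *Tas1r3*+/+ mice (exact two-sided permutation test, p = 0.257). It was 0.746 and 1.22 in ND-fed and 0.997 to 2.28 in WD-fed *Tas1r3*-/- mice (exact two-sided permutation test, p = 0.3). The ranges overlapped in both genotypes. No transcript of *Slc11a2* passed the adjusted threshold, the lowest unadjusted p being that of Slc11a2-203 for WD in *Tas1r3*+/+ mice (log2 fold change -0.90, limma adjusted p = 0.286).

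Of the ferritin genes, *Fth1* (ENSMUSG00000024661.7, chr19:9980598-9985098) showed no difference beyond its spread. Levels on the ND and WD were 1059 ± 137 and 1227 ± 265 (SD, n = 4 each) in *Tas1r3*+/+ mice, and 987 ± 237 (SD, n = 2) and 1300 ± 419 (SD, n = 3) in *Tas1r3*-/- mice. The log2 fold change for WD was 0.20 in *Tas1r3*+/+ and 0.37 in *Tas1r3*-/- mice, with intervals from -0.37 to 0.77 and from -0.37 to 1.11. Without scaling, the value in *Tas1r3*-/- mice was -0.03.

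*Ftl1* (ENSMUSG00000050708.16, chr7:45457944-45459884), the light chain, was at 433, 509, 500 and 547 in ND-fed *Tas1r3*+/+ mice. On the WD the same genotype was at 314, 179, 434 and 295. Only WD-fed female 1, at 434, reached into the ND-fed range. The log2 fold change was -0.77 (SE 0.28, limma p = 0.0189, adjusted p = 0.235; exact two-sided permutation test, p = 0.0571), and it was -0.54 without WD-fed male 2, which was the lowest library. In *Tas1r3*-/- mice *Ftl1* was at 311 and 403 on the ND and 309, 255 and 507 on the WD, a log2 fold change of -0.05. On the ND, both *Tas1r3*-/- libraries lay below the 4 *Tas1r3*+/+ libraries (log2 fold change -0.49, limma adjusted p = 0.895; exact two-sided permutation test, p = 0.0667, the smallest possible). The difference between the diet effects was 0.72 on the log2 scale (SE 0.46, limma adjusted p = 1.00), which did not pass. Without scaling, the *Tas1r3*+/+ diet difference of *Ftl1* had an adjusted p of 0.0150 in limma and that of *Slc11a2* one of 0.0133. In that setting the median log2 difference of all genes was itself -0.38. There, 539 genes passed an adjusted p of 0.01 and 2-fold. Relative to that median, *Ftl1* was at -0.85 and *Slc11a2* at -0.44.

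Of the 5 listed transcripts of *Ftl1*, the diet groups of *Tas1r3*+/+ mice stood apart in 2, which are those that hold the IRE match. Ftl1-201, the coding form, was at 122, 142, 173 and 178 in ND-fed and at 51.4, 37.8, 89.4 and 86.7 in WD-fed *Tas1r3*+/+ mice, with no overlap. Its log2 fold change was -1.24 (SE 0.36, limma adjusted p = 0.150; exact two-sided permutation test, p = 0.0286, the smallest that 70 splits allow). Ftl1-202, annotated as a target of nonsense-mediated decay, was at 272 ± 42.6 and 141 ± 32.9 (SD, n = 4 each; log2 fold change -0.93, limma adjusted p = 0.162; exact two-sided permutation test, p = 0.0286). The retained-intron form Ftl1-206 was at 68.4 ± 39.3 and 94.8 ± 66.7. Among *Tas1r3*-/- mice, Ftl1-201 was at 69.2 and 76.9 on the ND and 29.0, 46.3 and 106 on the WD, a log2 fold change of -0.48 with overlapping groups. Among all transcripts, groups did not overlap for 9.41% in the *Tas1r3*+/+ diet comparison, and 0.0735% were called.

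Light chain was set against heavy chain within each library, a ratio that needs no scaling and was chosen after the values were seen. Ftl1-201 per Fth1-201 was 0.340, 0.332, 0.447 and 0.379 in ND-fed *Tas1r3*+/+ mice and 0.203 and 0.223 in ND-fed *Tas1r3*-/- males. On the WD it was 0.147, 0.102, 0.177 and 0.115 in *Tas1r3*+/+ mice and 0.0990, 0.111 and 0.115 in *Tas1r3*-/- mice. For these coding transcripts, ND-fed *Tas1r3*+/+ libraries were the highest, ND-fed *Tas1r3*-/- males came next, and the WD-fed genotypes overlapped at the bottom. The diet difference was -1.49 on the log2 scale in *Tas1r3*+/+ mice (exact two-sided permutation test, p = 0.0286, adjusted p = 0.186 over 13 tests of ratios). In *Tas1r3*-/- mice it was -0.98 (exact two-sided permutation test, p = 0.1, adjusted p = 0.26), which is the smallest p that 10 splits allow. Neither passed the adjustment. The ratio of the whole genes, *Ftl1* to *Fth1*, did not keep this order. It was 0.433 to 0.507 in ND-fed and 0.172 to 0.363 in WD-fed *Tas1r3*+/+ mice (log2 difference -0.96; exact two-sided permutation test, p = 0.0286, adjusted p = 0.186). The ND-fed *Tas1r3*-/- males, at 0.269 and 0.492, overlapped both the ND-fed *Tas1r3*+/+ libraries (exact two-sided permutation test, p = 0.2) and the WD-fed *Tas1r3*-/- libraries, at 0.227 to 0.310 (log2 difference -0.42; exact two-sided permutation test, p = 0.5).

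Processed copies of the ferritin genes share much of their sequence, so reads can be split between them. In the libraries, *Ftl1-ps1* held 26.0% to 113% of the level of *Ftl1*, *Ftl2-ps* 10.6% to 105% and *Ftl1-ps2* 1.17% to 21.6%, whereas *Fth-ps2* and *Fth-ps3* held at most 2.69% and 1.02% of *Fth1*. No copy passed an adjusted p of 0.05 in any comparison, and the highest share of each *Ftl1* copy was in a WD-fed *Tas1r3*+/+ library. With these 3 copies added to *Ftl1* and transcripts weighted by length, the sum was 537 to 730 in ND-fed and 261 to 786 in WD-fed *Tas1r3*+/+ mice, with overlap (log2 difference -0.51; exact two-sided permutation test, p = 0.257). With *Tas1r3* knocked out, the log2 difference was -0.44 (exact two-sided permutation test, p = 0.3). Between the genotypes on the ND, where *Ftl1-ps1* reached 99.0% and *Ftl2-ps* 68.2% of *Ftl1* in a *Tas1r3*-/- library, the groups overlapped once the copies were added, with a log2 difference of -0.14 weighted by length (exact two-sided permutation test, p = 0.6) and -0.06 as a sum of RPKM (p = 0.867). The level of *Ftl1* by itself is therefore uncertain. *Ftl1* also moved with the 5 adipocyte markers over the 13 libraries (Pearson r = 0.824, permutation p = 5.6e-04, adjusted p = 0.0224; Spearman rho = 0.797, permutation p = 0.00175, adjusted p = 0.07). Without the 2 most distant libraries r was 0.700, and it was 0.402 within the ND-fed and 0.926 within the WD-fed libraries. All 5 markers were detected, with sums of 15.4 to 142 in ND-fed and 6.49 to 46.1 in WD-fed *Tas1r3*+/+ mice. Their part in the result was not tested.

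**Figure D3:**
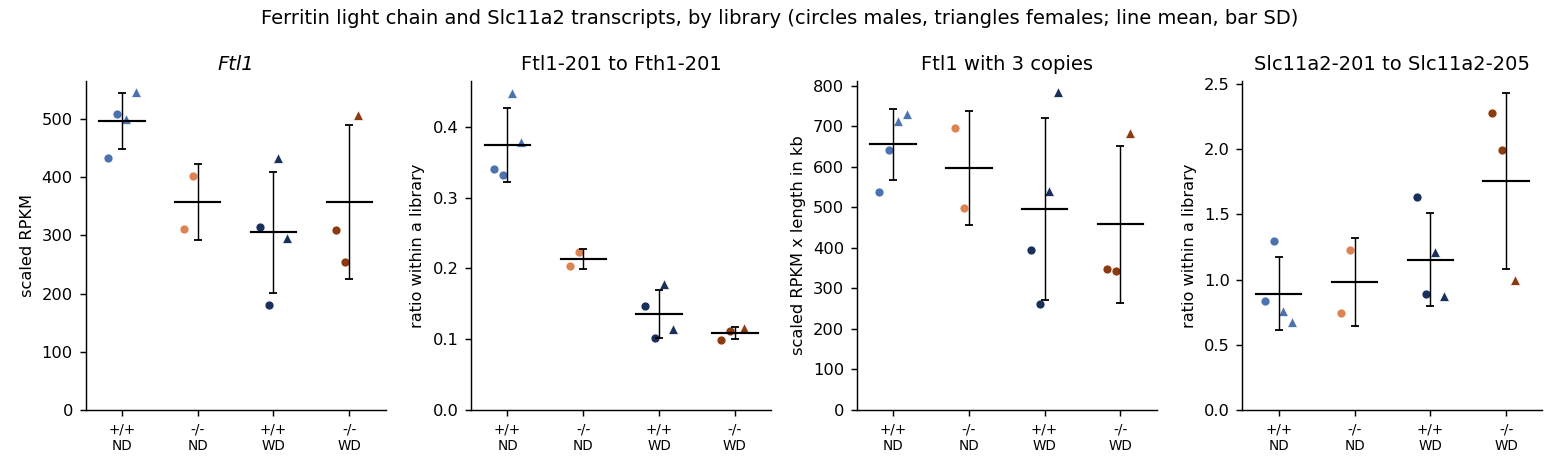
By library, scaled RPKM of *Ftl1*, the ratio of Ftl1-201 to Fth1-201, the length-weighted sum of *Ftl1* with its 3 copies, and the ratio of Slc11a2-201 to Slc11a2-205. Circles are males, triangles females, lines means and bars SD. The light-to-heavy ratio is 0.332 or more in ND-fed *Tas1r3*+/+ libraries and 0.177 or less in every WD-fed library, while the sum with copies and the *Slc11a2* ratio overlap between the diets.

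The exporter *Slc40a1* (ENSMUSG00000025993.10, chr1:45908068-45926523) varied as much within groups as between them. It was at 15.8, 5.51, 30.2 and 24.0 in ND-fed and at 8.28, 10.2, 6.57 and 29.6 in WD-fed *Tas1r3*+/+ mice. In *Tas1r3*-/- mice it was at 12.1 and 9.86 on the ND and 8.91, 19.5 and 29.9 on the WD. Female libraries held the highest value of each group that had one, but WD-fed *Tas1r3*+/+ female 1, at 6.57, was the lowest of its group. The log2 fold change for WD was -0.47 (SE 0.55) in *Tas1r3*+/+ and 0.64 (SE 0.71) in *Tas1r3*-/- mice, and their difference was 1.11 (SE 0.90, limma adjusted p = 1.00). Between the genotypes on the ND the value was -0.53, and 0.24 when only males were fitted.

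*Heph* (ENSMUSG00000031209.14, chrX:96455359-96574485), the ferroxidase beside ferroportin, was at 32.9, 30.6, 19.8 and 40.2 in ND-fed *Tas1r3*+/+ mice and at 17.8 and 14.8 in ND-fed *Tas1r3*-/- males. On the WD it was at 23.8, 30.9, 20.8 and 44.5 in *Tas1r3*+/+ mice and ran from 7.19 in male 1 through 22.7 in male 2 to 51.4 in the female mean of *Tas1r3*-/- mice, which are the lowest and the highest value of all. Both ND-fed *Tas1r3*-/- libraries lay below every ND-fed *Tas1r3*+/+ library. That log2 difference was -0.87 (SE 0.57, limma adjusted p = 0.895; exact two-sided permutation test, p = 0.0667, the smallest possible), and -0.92 with males only. On the WD it was -0.48, but 0.24 without *Tas1r3*-/- male 1 and -1.13 without the female mean. The diets gave -0.06 in *Tas1r3*+/+ mice and 0.33 in *Tas1r3*-/- mice, the latter -0.32 without the female mean and -0.06 without scaling.

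On the ND, 4 of the 10 genes did not overlap between the genotypes, with *Slc11a2*, *Heph* and *Ftl1* lower and *Glrx5* higher in *Tas1r3*-/- mice, beside 22% of all genes tested (13.3% lower and 8.67% higher). The lower *Ftl1* did not hold with its copies added, and *Glrx5* enters with samples that selected it. Cell type markers moved with these ND-fed groups in both directions. The sum of the 10 enterocyte markers was 9171 to 13828 in *Tas1r3*+/+ and 3752 to 6557 in *Tas1r3*-/- libraries, and all 10 had log2 differences below 0, from -2.12 to -0.44, none of them called. All 5 Paneth cell, 8 proliferating cell and 6 smooth muscle markers had log2 differences above 0 (medians 1.12, 0.48 and 0.66), and of 6 goblet cell markers 2 were above and 4 below, again with none called. *Heph* followed that sum across the 13 libraries (Pearson r = 0.911, permutation p = 3e-05, adjusted p = 0.0036; Spearman rho = 0.846, permutation p = 4e-04, adjusted p = 0.048). Without the 2 most distant libraries r was 0.759, and it was 0.882 within the 6 ND-fed and 0.936 within the 7 WD-fed libraries. *Slc11a2* gave r = 0.780 (permutation p = 9.1e-04, adjusted p = 0.0273) and rho = 0.780 (permutation p = 0.00239, adjusted p = 0.0717), with r = 0.626 without the 2 most distant libraries, 0.903 within the ND-fed and 0.798 within the WD-fed libraries. The relations were 120 in all (10 genes by 12 marker lists), of which 7 passed an adjusted p of 0.05 by r and 1 by rho. The others that passed by r were *Cybrd1* with the enterocyte markers (r = -0.764) and *Heph*, *Hmox1* and *Iscu* with the smooth muscle markers (r = -0.796, 0.791 and 0.769). The share of all genes that follow these marker sums was not computed, so the relations cannot be called particular to these genes. The part of these cell types in the lower *Slc11a2* and *Heph* was not tested.

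**Figure D4:**
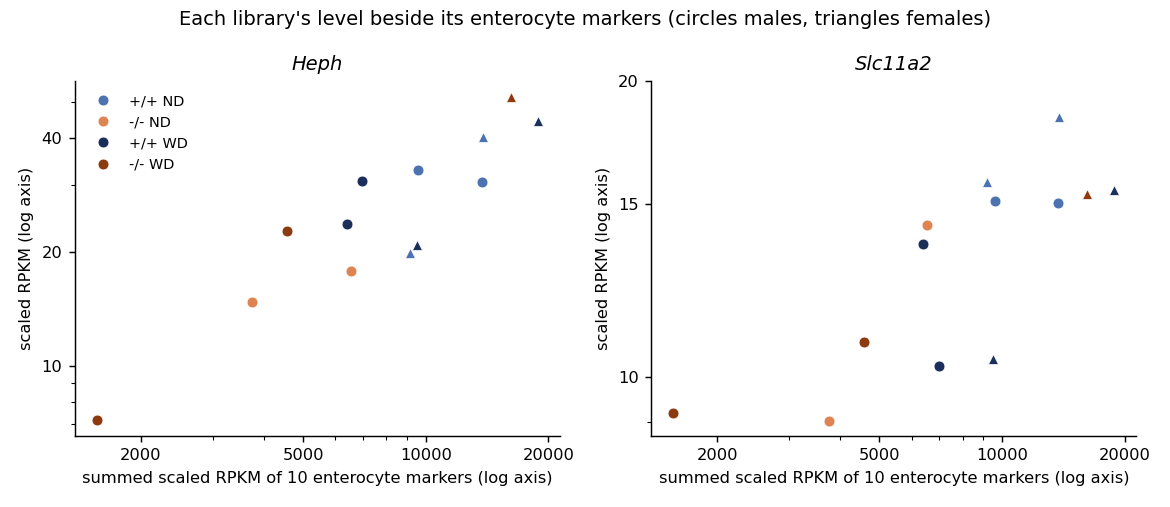
Scaled RPKM of *Heph* and *Slc11a2* (y axis, log scale) against the summed scaled RPKM of 10 enterocyte markers (x axis, log scale) in the 13 libraries. Colours are the 4 groups, circles males and triangles females. The lowest *Heph* value, 7.19, is in the library with the lowest marker sum, 1562.

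*Tfrc* (ENSMUSG00000022797.16, chr16:32608920-32632794), which is regulated through its 3′ IREs, was at 14.8 ± 3.21 and 21.1 ± 6.54 (SD, n = 4 each) on the ND and WD in *Tas1r3*+/+ mice. The log2 fold change was 0.48 (SE 0.23, limma adjusted p = 0.343; exact two-sided permutation test, p = 0.114). Among *Tas1r3*-/- mice, it was at 17.9 ± 4.53 (SD, n = 2) and 21.4 ± 3.61 (SD, n = 3), which differ by 0.26 on the log2 scale. The coding transcript Tfrc-201 was at 6.33 ± 3.15 and 6.42 ± 4.97 in ND- and WD-fed *Tas1r3*+/+ mice (log2 fold change -0.09). The retained-intron transcript Tfrc-204, which covers the last exons and the same IREs, was at 7.93 ± 2.14 and 13.8 ± 7.25 (log2 fold change 0.70, limma adjusted p = 0.373; exact two-sided permutation test, p = 0.171). With protein-coding transcripts only, the *Tfrc* value was -0.15.

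*Hmox1* (ENSMUSG00000005413.8, chr8:75093621-75100589), the inducible heme oxygenase, was at 1.97 ± 1.51 and 2.26 ± 0.817 (SD, n = 4 each) on the ND and WD in *Tas1r3*+/+ mice, and at 3.21 ± 1.01 (SD, n = 2) and 2.58 ± 0.610 (SD, n = 3) in *Tas1r3*-/- mice, from 11 to 76 reads per library. No comparison passed, the largest value being 0.73 (SE 0.44, limma adjusted p = 0.895; exact two-sided permutation test, p = 0.333) between the genotypes on the ND. *Iscu* (ENSMUSG00000025825.12, chr5:113772748-113778288), the scaffold, was at 18.6 ± 4.61 (SD, n = 4) and 21.5 ± 6.71 (SD, n = 4) in *Tas1r3*+/+ and at 18.1 ± 1.36 (SD, n = 2) and 21.9 ± 2.60 (SD, n = 3) in *Tas1r3*-/- mice on the ND and WD. In *Tas1r3*-/- mice the diets did not overlap (19.0 and 17.1 against 24.6, 21.5 and 19.5; exact two-sided permutation test, p = 0.2), as was so for 20.9% of all genes.

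*Glrx5* (ENSMUSG00000021102.4, chr12:105032688-105042906, plus strand) was selected by its diet difference in *Tas1r3*+/+ mice, and its diet groups also stood apart in *Tas1r3*-/- mice. It was at 35.7, 38.2, 39.1 and 40.2 in ND-fed *Tas1r3*+/+ mice and at 14.8, 14.4, 17.6 and 21.7 in WD-fed ones. This difference, -1.16 on the log2 scale (SE 0.16), is what selected the gene and is given without a test. In mice lacking *Tas1r3*, whose samples were not used for the selection, *Glrx5* was at 55.1 and 43.4 on the ND and at 21.9, 24.6 and 23.2 on the WD. All 3 WD-fed libraries thus lay below both ND-fed ones, as was so in that direction for 10.1% of all genes. This holds for summed RPKM and not when transcripts are weighted by length, as given below. The log2 fold change was -1.06 (SE 0.20, interval -1.50 to -0.62, limma p = 1.98e-04, adjusted p = 0.689; exact two-sided permutation test, p = 0.1, the smallest that 10 splits allow). The unadjusted limma test passed and the adjusted one did not. Here and for the transcripts below, the limma SE comes from a spread shared by all 4 groups. These include the *Tas1r3*+/+ samples that selected the gene, so the limma p is not independent of the selection. The permutation test used *Tas1r3*-/- libraries only. The log2 fold change was -0.89 without ND-fed male 1 and -1.23 without ND-fed male 2. Between the genotypes the values were 0.35 on the ND and 0.45 on the WD, and the difference of the diet effects was 0.10, all without a test because the selected samples enter them.

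The gene has 3 annotated transcripts, which share parts of their exons and differ at the joint between exons 1 and 2 and in stretches of their own. Glrx5-201, the full coding form of 2925 bases, joins chr12:105032690-105032982 to chr12:105040275-105042906. Glrx5-202, a processed transcript of 722 bases without a coding sequence, begins in an exon of its own (chr12:105035216-105035472) and ends in the first 465 bases of the same second exon. Glrx5-203, of 793 bases, is annotated as coding and has another second exon (chr12:105038124-105038621). The 30 bases across each joint are given 5′ to 3′ from the reference transcripts, with the end of exon 1 in lower case and the start of exon 2 in capitals.
Glrx5-201: cggagctgaggcaagGTATTAAAGACTACT
Glrx5-202: gcagtgtctgccaggGTATTAAAGACTACT
Glrx5-203: cggagctgaggcaagATTCAGCTCTAACAG
The capitals are the same in 201 and 202, and the lower-case bases in 201 and 203. The first exon of Glrx5-202, the only stretch that belongs to that transcript alone, is shown because most of the *Glrx5* level was assigned to it. It is 257 bases long, at chr12:105035216-105035472 on the plus strand, with its last 10 bases before the joint in capitals.
Glrx5-202 exon 1: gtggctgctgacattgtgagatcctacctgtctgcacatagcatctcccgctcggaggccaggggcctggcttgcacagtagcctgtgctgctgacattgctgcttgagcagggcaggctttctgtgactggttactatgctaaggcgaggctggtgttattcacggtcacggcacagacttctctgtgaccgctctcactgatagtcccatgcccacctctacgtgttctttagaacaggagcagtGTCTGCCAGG
None of its 233 windows of 25 bases occurs in another reference transcript, and its GC content is 56.0%.

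The 3 transcripts did not move alike. Glrx5-202 was at 28.9, 28.0, 33.6 and 34.0 in ND-fed and at 9.49, 8.53, 11.6 and 15.7 in WD-fed *Tas1r3*+/+ mice. In *Tas1r3*-/- mice it was at 45.5 and 35.6 on the ND and at 15.1, 14.1 and 15.8 on the WD. Every WD-fed library was below every ND-fed library, which in *Tas1r3*+/+ mice is a description because these samples selected the gene. The share of all transcripts that did so in both genotypes was not counted. Among *Tas1r3*-/- mice, the log2 fold change was -1.41 (SE 0.27, limma p = 1.67e-04, adjusted p = 0.197; exact two-sided permutation test, p = 0.1), beside a value of -1.41 in *Tas1r3*+/+ mice, which is a description. Of all transcripts, 0.00918% were called for diet in *Tas1r3*-/- mice, none of them a transcript of the 10 genes.

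Glrx5-201, the coding form, lay the other way. It was at 4.04, 4.47, 3.77 and 2.44 in ND-fed and at 5.33, 5.78, 5.44 and 6.00 in WD-fed *Tas1r3*+/+ mice. In *Tas1r3*-/- mice it was at 4.58 and 2.31 on the ND and at 6.83, 10.5 and 6.35 on the WD. The WD-fed libraries were above the ND-fed ones in each genotype, with a log2 fold change of 1.11 in *Tas1r3*-/- mice (SE 0.34, limma p = 0.00609, adjusted p = 0.544; exact two-sided permutation test, p = 0.1) and 0.61 in *Tas1r3*+/+ mice. The latter is a description. Among all genes, the diet groups of *Tas1r3*-/- mice did not overlap for 20.9%, and the share of all transcripts was not counted. Glrx5-203 was at 2.67, 5.78, 1.72 and 3.77 in ND-fed *Tas1r3*+/+ and at 5.07 and 5.52 in ND-fed *Tas1r3*-/- mice, and on the WD at most 0.560 and 1.13. Its log2 fold change in *Tas1r3*-/- mice was -3.00 (SE 0.57, limma p = 1.66e-04, adjusted p = 0.197; exact two-sided permutation test, p = 0.1), a fitted value that depends on the pseudocount because the WD-fed libraries held at most 8.58 reads.

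The share of each transcript in the *Glrx5* level is given next, as a description in *Tas1r3*+/+ mice. Glrx5-202 held 73.2% to 85.9% of the summed RPKM in ND-fed *Tas1r3*+/+ and 82.0% to 82.5% in ND-fed *Tas1r3*-/- libraries, compared with 59.4% to 72.3% and 57.3% to 68.8% on the WD. The share of Glrx5-201 was 6.06% to 11.7% and 5.32% to 8.31% on the ND and 27.7% to 40.3% and 27.3% to 42.7% on the WD. The ratio of 202 to 201 within a library was 6.25 to 14.0 in ND-fed and 1.48 to 2.61 in WD-fed *Tas1r3*+/+ mice. It was 9.92 and 15.4 in ND-fed and 1.34 to 2.48 in WD-fed *Tas1r3*-/- mice, a log2 difference of -2.67 (exact two-sided permutation test, p = 0.1, the smallest possible, adjusted p = 0.26), which did not pass. Processed transcripts as a class held 3.54% to 4.71% of all summed RPKM on the ND and 3.68% to 4.60% on the WD.

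How the transcripts are joined into a gene value changes the size of the *Glrx5* difference, since RPKM gives a read on a short transcript more weight. When transcripts were weighted by length, which counts reads, the diet groups of *Tas1r3*-/- mice overlapped. The log2 fold change was then -0.56 in *Tas1r3*+/+ and -0.35 in *Tas1r3*-/- mice. With the 2 protein-coding transcripts only, it was -0.28 and -0.13. With the single transcript of highest mean, Glrx5-202, it was -1.46 and -1.41. These settings were added after the data were seen. The values rest on 73.0 to 382 reads per library for Glrx5-202 and 66.4 to 376 for Glrx5-201, and reads in their shared 465 bases were divided by the quantification, whose part in the difference was not tested.

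**Figure D5:**
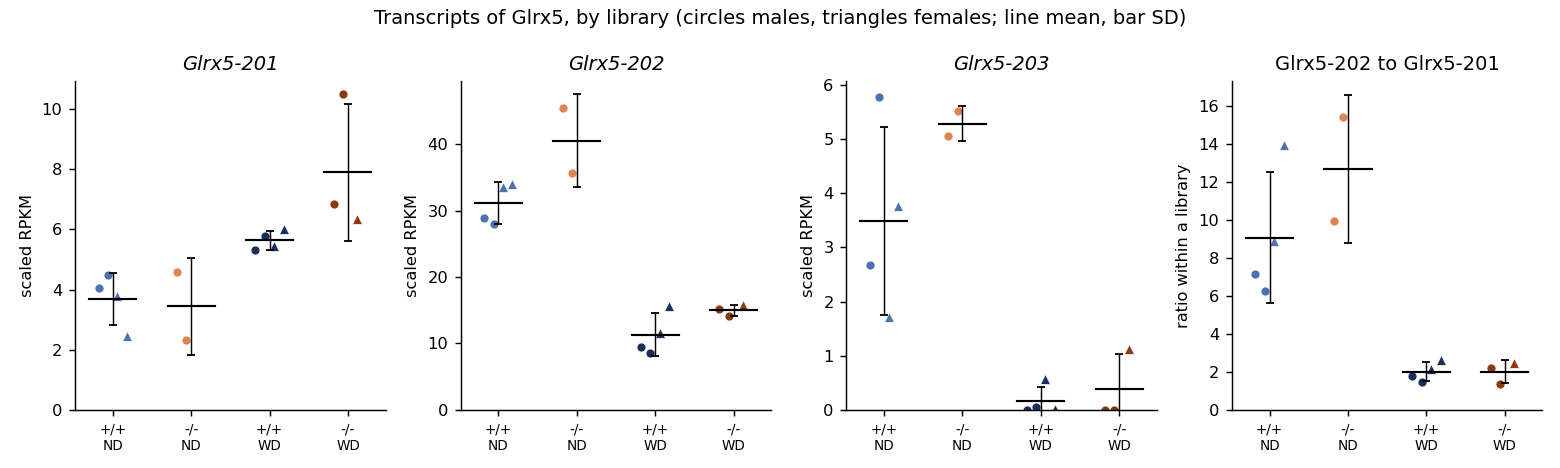
Scaled RPKM of Glrx5-201, Glrx5-202 and Glrx5-203 and the ratio of 202 to 201 in each library, by *Tas1r3* genotype and diet. Circles are males, triangles females, lines means and bars SD, cut off at 0. Glrx5-202 is 28.0 or more on the ND and 15.8 or less on the WD, Glrx5-201 is higher on the WD within each genotype, and the ratio is 6.25 or more on the ND and 2.61 or less on the WD.

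The 5 genes whose log2 levels were most like those of *Glrx5* over the 13 libraries, of 19041 others, were *Opa3* (r = 0.972), *Gm14017* (r = 0.956), *Dpm2* (r = 0.953), *Gm7856* (r = 0.950) and *Gm8956* (r = 0.939). The libraries fall into 2 diet groups that these genes share, and within the 4 groups r was 0.785, 0.828, 0.759, 0.703 and 0.481. These values come from the libraries in which the genes were picked, so they are not independent of the picking. *Opa3*, a mitochondrial protein gene, ranged from 16.5 to 18.4 on the ND and from 13.7 to 16.1 on the WD. *Dpm2*, a subunit of dolichol-phosphate mannose synthase, ranged from 43.5 to 54.5 and from 24.6 to 38.4. Among the other 9 members, r with *Glrx5* ran from -0.36 for *Tfrc* to 0.52 for *Ftl1*.

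The rest of the iron pathway was read from 12 lists with 128 tested genes, which cover transport and storage, hepcidin signalling, iron and oxygen sensing, hypoxia and NRF2 targets, iron-sulfur assembly and iron-sulfur proteins, glutaredoxins, heme synthesis and breakdown, and ferritin pseudogenes. At an adjusted p under 0.05 in limma, 0 rose and 0 fell in any comparison, where 22 genes in all (0.116%) passed for diet in *Tas1r3*+/+ mice and 1 (0.00525%) in *Tas1r3*-/- mice. At an unadjusted p under 0.05, 5 were higher and 15 lower on the WD in *Tas1r3*+/+ mice, and 1 was higher and 6 lower in *Tas1r3*-/- mice, beside 6.9% of all genes higher and 8.64% lower in the first genotype and 2.75% each way in the second. The median log2 fold change was -0.10 in both genotypes, compared with 0.02 and 0.00 for all genes.

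The following were picked after their values were seen. *Pcbp1*, which encodes a cytosolic iron chaperone that loads ferritin, had the lowest adjusted p of the lists. It was at 163 to 183 in ND-fed and 99.1 to 110 in WD-fed *Tas1r3*+/+ mice, and at 143 and 165 in ND-fed and 104 to 109 in WD-fed *Tas1r3*-/- mice. All WD-fed libraries were below all ND-fed ones. In *Tas1r3*-/- mice this was so in that direction for 10.1% of all genes, and the share over both genotypes was not counted. The log2 fold change was -0.73 (SE 0.13, limma adjusted p = 0.0674) in *Tas1r3*+/+ and -0.53 (SE 0.17, limma adjusted p = 0.858) in *Tas1r3*-/- mice. By list, at an unadjusted limma p under 0.05 in *Tas1r3*+/+ mice (8.64% of all genes lower and 6.9% higher), 3 of 21 other transport and storage genes were lower, 3 of 13 sensing genes were higher and 1 lower, and 1 of 17 mitochondrial iron-sulfur assembly genes was higher and 2 lower. Of the heme synthesis genes 3 of 11 were lower, and 0 of 11 passed in *Tas1r3*-/- mice. The heme genes were *Alas1*, the first enzyme of the pathway (-0.55), *Cpox* (-0.67) and *Tmem14c* (-0.44), and in *Tas1r3*-/- mice their values were -0.56, -0.20 and -0.32. The iron regulatory proteins that bind the IREs were split, with *Aco1* at -0.49 (limma adjusted p = 0.266) and *Ireb2* at 0.45 (limma adjusted p = 0.310) in *Tas1r3*+/+ mice, and at -0.34 and 0.33 in *Tas1r3*-/- mice. None of these passed the adjusted threshold.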

How the data were processed

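Poly(A)-selected, rRNA-depleted RNA of whole terminal ileum was sequenced on an Ion Proton instrument. Per the study's methods, the authors checked reads with FASTQC, aligned them with STAR in Partek Flow to mm10 (GRCm38) and quantified Ensembl transcripts. The deposited values are RPKM per transcript, normalized by the authors, and their own tests used DESeq2.

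The members and lists were chosen with earlier results of these data known. Transcripts were named by gene, and RPKM was summed per gene. Libraries were scaled by trimmed means (30% of ratios and 5% of levels trimmed at each end). The filter kept genes that reached an RPKM of 1 in 2 or more of the 13 libraries, and log2(scaled RPKM + 0.5) was fitted with limma 3.58.1 (trend, 4 groups in 1 model) in R 4.3.3. Fold changes are on that scale and understate the change of low genes. P-values were adjusted by Benjamini-Hochberg over all genes or transcripts tested. Single members also had exact two-sided permutation tests (Python 3.11.15, scipy 1.17.1). Scripts were tested on simulated data. Depth was implied by the RPKM of 1 read, which on 1 kb was 0.0692 to 0.139, so low levels are coarse. Annotation was GENCODE M21, matching 98.2% of transcripts. The naming rule took the 10 members, *Tas1r3*, ferritin copies, the 5 genes most like *Glrx5* and list genes at an adjusted p under 0.05. No list gene met it, so those named from the lists, and the single marker genes, were picked with their values known. The alternatives tried are given in the closing section.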

Additional observations from a re-analysis of the deposited data

Results flagged for a closer look

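In 80 groups of 4 libraries (members and their transcripts), 6 held a library far from the other 3 by Dixon's test, where chance marks about 1 in 20. All values are scaled RPKM. *Fth1* was 1263 in ND-fed *Tas1r3*+/+ female 2. Ftl1-203 was 1.72 and Iscu-203 was 0.835 in ND-fed *Tas1r3*+/+ male 2. Glrx5-203 was 0.560 in WD-fed *Tas1r3*+/+ female 1, Hmox1-202 was 0.875 in WD-fed *Tas1r3*+/+ male 1, and Slc40a1-202 was 1.09 in WD-fed *Tas1r3*+/+ female 2.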

How the results depend on the processing

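Counts are genes past an adjusted p of 0.01 and 2-fold in limma, unless said otherwise, and the causes of the shifts were not tested. The setting with all columns as labelled counts the ND-fed *Tas1r3*-/- female columns, which are weighted means of the males, as further mice. It also counts the related female columns of WD-fed *Tas1r3*-/- mice separately, so its counts and p-values rest on too many replicates. For diet in *Tas1r3*+/+ mice (1 gene), the count was 539 without scaling, 4 with sex as a covariate, 3 with a replicate block, 0 with males only, 33 with all columns as labelled, 0 with protein-coding transcripts only, 22 at an adjusted p under 0.05, 268 at an unadjusted p under 0.01 and 2-fold, and 1 to 3 with each library left out (3 without WD-fed *Tas1r3*+/+ male 2, 2 without ND-fed *Tas1r3*+/+ male 1). For diet in *Tas1r3*-/- mice (0), it was 1 with upper-quartile scaling, 1 with a mean RPKM of at least 5, 16 with all columns, 1 at an adjusted p under 0.05, 90 at an unadjusted p under 0.01, and 0 to 1 with a library left out (1 without WD-fed *Tas1r3*+/+ male 2 or female 1). Between genotypes on the ND (0), it was 1 with a pseudocount of 0.1, all columns, a length-weighted sum, protein-coding transcripts or an adjusted p under 0.05, and 76 at an unadjusted p under 0.01. On the WD (2), it was 4 without scaling, 1 with a mean RPKM of at least 5, the compared groups only or protein-coding transcripts, 0 with males only or without the 102 transcripts whose values have more than 6 digits, 6 with all columns, 5 at an adjusted p under 0.05, 57 at an unadjusted p under 0.01, and 1 to 3 with a library left out (1 without WD-fed *Tas1r3*+/+ male 1 or 2 or any WD-fed *Tas1r3*-/- library, 3 without ND-fed *Tas1r3*+/+ female 2). The interaction (0) gave 59 at an unadjusted p under 0.01 and 0 with each library left out. For diet in *Tas1r3*+/+ mice, *Glrx5* transcripts are left out of the count, because those samples selected the gene. Of the other member transcripts (0), 1 passed there at an unadjusted p under 0.01 and 2-fold, Ftl1-201, beside 3.66% of all transcripts. None passed without scaling (0.765% of all transcripts), with sex as a covariate (0.0964%) or at an adjusted p under 0.05 (0.491%). At that unadjusted p, 3 passed in *Tas1r3*-/- mice (1.53%), all of *Glrx5*.

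Of 1429 member values under the alternatives, 1345 kept their sign. *Glrx5* in *Tas1r3*-/- mice had an adjusted limma p from 0.00448, with all columns as labelled, to 0.999. The lower value counts weighted means of the ND-fed males as further mice, so it does not measure the spread between mice. Same-numbered libraries correlated between -0.150 and 0.568 (14 pairs, median 0.111). Other libraries of different groups correlated between -0.632 and 0.634 (48 pairs, median -0.0451). Whether the numbers pair the libraries was not tested. With the replicate block *Glrx5* in *Tas1r3*-/- mice was -1.10 (limma adjusted p = 0.325). The settings on length weighting, protein-coding transcripts, digits, ratios and, for member transcripts, scaling, covariates and call rules were chosen after seeing the data. Where leaving out an ND-fed *Tas1r3*-/- library left 1, it was assumed to vary like the other groups.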
